A study of Mus musculus with 12 samples.

Results

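The genes described here are 45 mouse genes of double-strand break repair by homologous recombination, of the Fanconi pathway and of the ATR and ATM checkpoint, with the core genes of non-homologous end joining. They are given by a list of symbols, which leaves off genes of very long internal exons such as Brca1 and Brca2. All 45 were among the 55401 Ensembl identifiers counted in every library, and all 45 passed the filter on low counts, so they were 45 of the 17569 genes tested. By role they comprised 5 strand-exchange paralogs (Rad51b, Rad51c, Rad51d, Xrcc2 and Xrcc3) and 6 partners of BRCA1 or BRCA2 and recombination mediators or motors. There were 7 genes of end resection, the helicase Blm included, 7 genes of the Fanconi core complex and 2 of the Fanconi ID complex. A further 5 genes were those of checkpoint kinases and of the ATR partner Atrip. The last were 7 genes of the checkpoint clamp, its loader and its mediators, and 6 end-joining genes.

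A double-strand break that is repaired by homologous recombination is first trimmed to single-stranded ends by nucleases. With the help of BRCA2, PALB2 and the strand-exchange paralogs, such an end then invades an intact copy of the sequence. The Fanconi core complex attaches ubiquitin to FANCD2 and FANCI at crosslinked DNA, ATM responds to breaks, ATR responds to single-stranded DNA, and the Ku proteins lead the competing end-joining route. Many genes of recombination are transcribed most in S phase, and so their mRNA level in a growing culture also moves with the share of cells in that phase.

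The cells were Neuro-2a, an established mouse neuroblastoma line. Every culture received a GFP plasmid (1 µg) together with miR30-based artificial microRNA plasmids (3 µg in total), and GFP-positive cells were sorted 48 hours after transfection. The microRNA plasmids were a scramble control (miScramble), 3 pooled plasmids against Rbmx, an X-linked RNA-binding protein gene (miRbmx), or 2 pooled plasmids against Rbmxl1, its retrocopy (miRbmxl1). Each group held 4 libraries of ribosome-depleted, strand-marked total RNA, numbered 1 to 4 as biological replicates; the labels do not say that these came from separate cultures or days, so p-values measure the spread between these libraries, which may be technical. The knockdown was transient and partial, each group pooled constructs or used 1 scramble, and a single cell line was used.

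Each library held 43.1 to 52.2 M reads counted in genes. Rbmx measured 57.6, 67.8, 72.2 and 73.3 CPM (counts per 1 M counts in genes, scaled by TMM) in miScramble and 22.2, 24.7, 31.0 and 32.6 CPM in miRbmx, a log2 fold change of −1.30 ± 0.08 (SE). Rbmxl1 measured 31.3, 36.7, 34.2 and 34.2 CPM in miScramble and 16.7, 12.9, 14.7 and 12.3 CPM in miRbmxl1, a log2 fold change of −1.27 ± 0.09. Rbmx was also higher in miRbmxl1 than in miScramble (0.36 ± 0.07, edgeR adjusted p = 0.017). Of 13 neuroblastoma markers 11 were above 1 CPM on average, with a summed level of 2962 to 3797 CPM per library. Summed fibroblast markers stayed at 0.975 to 2.98 CPM and blood markers at 0.453 to 1.48 CPM, with Col3a1, Cd3e and Hba-a1 at 0 in all libraries. Glial markers summed to 12.9 to 19.9 CPM, with Mog at 0, and epithelial markers to 0.0864 to 0.460 CPM, with Epcam and Krt18 at 0. Replicates 1 and 2 stood apart from replicates 3 and 4 in every group along the first principal component of all genes tested, which held 37.9% of the variance. The replicate number was kept as a block in the tests, as the rule that defines the list sets it. The counts of calls within replicates 1 and 2 and within replicates 3 and 4 are given after the pooled ones.

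In Rbmx knockdown 6 of the 45 genes passed the test against miScramble, 3 lower and 3 higher. Rad54l, Dna2 and Topbp1 were lower by about the same amount, with log2 fold changes of −0.30, −0.29 and −0.30. H2afx, Rad1 and Xrcc5 were higher, by 0.28, 0.28 and 0.25. Calls were made by edgeR's quasi-likelihood test with the replicate block, at an adjusted p (Benjamini-Hochberg over all genes tested) under 0.05. In this comparison 8.35% of the 17569 genes were called, 4.16% higher and 4.19% lower. The members' share was 13.3%. Over the 45 genes the median log2 fold change was −0.03, with 19 genes higher and 26 lower, beside a median of 0.00 and 50.0% higher over all genes tested, and the extremes were −0.30 and 0.31. Without 1 library the median lay between −0.039 and 0.0065, positive without miRbmx replicate 2, and with the GC or length trend removed 22 genes were higher and 23 lower. Within replicates 1 and 2 the median was −0.038 with 18 genes higher, and within replicates 3 and 4 it was 0.0029 with 24 higher. In bulk RNA, fewer cells of a type and less RNA per cell cannot be told apart. Fit without the replicate block, none of the 45 was called by edgeR (lowest adjusted p = 0.267, 4 genes at an unadjusted p under 0.05, as 10.9% of all genes were), when 1 gene of all those tested (0.00569%) was called.

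**Figure D1:**
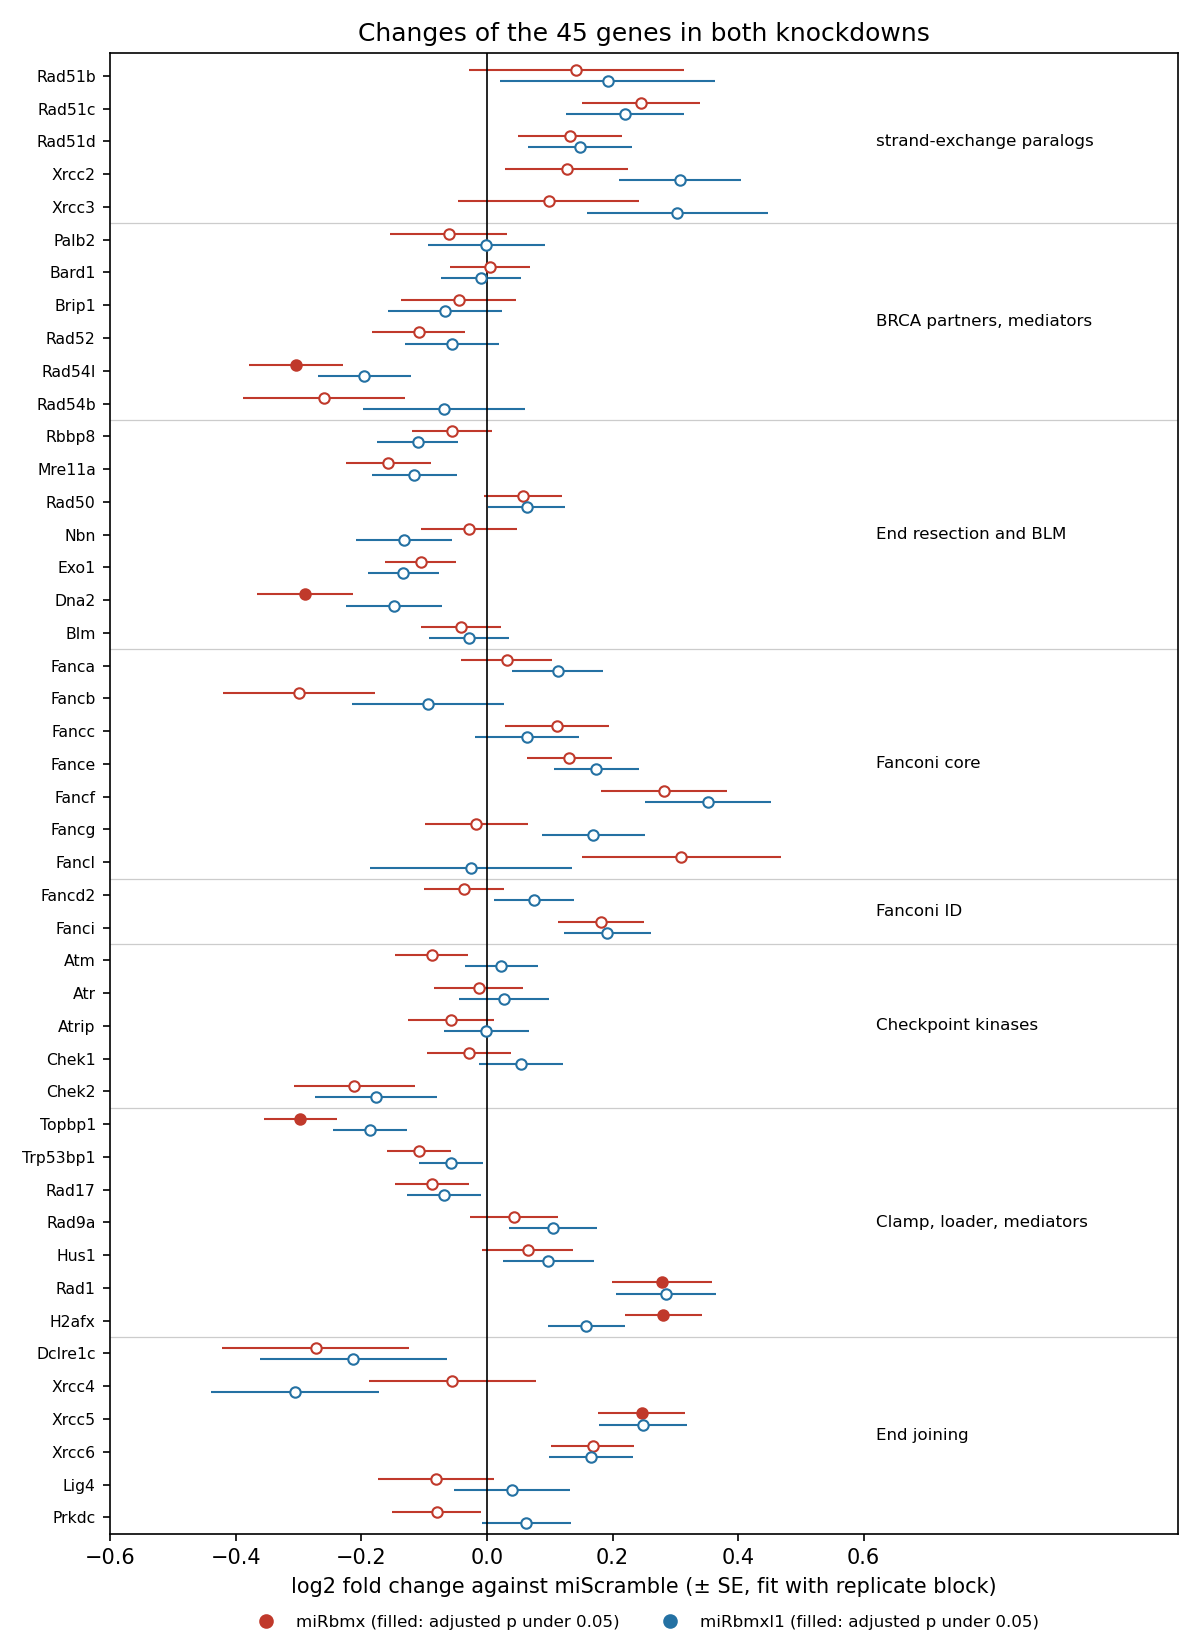
Log2 fold change against miScramble with its standard error for each of the 45 genes, grouped by role, in miRbmx (red) and miRbmxl1 (blue) from the fit with the replicate block; filled points passed the test. The 6 filled points all belong to miRbmx, with Rad54l, Dna2 and Topbp1 left of 0 and Rad1, H2afx and Xrcc5 right of it.

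Topbp1 encodes the scaffold that activates ATR at stalled forks and processed breaks (chr9:103305215-103350428, plus strand, GRCm38). It measured 207, 204, 260 and 248 CPM in miScramble replicates 1 to 4, 179, 171, 199 and 196 CPM in miRbmx, and 187, 203, 216 and 198 CPM in miRbmxl1. All 4 miRbmx libraries lay below all 4 miScramble libraries, and the miRbmxl1 libraries lay in between and overlapped both. The log2 fold change in miRbmx was −0.30 ± 0.06 (SE, adjusted p = 0.010), lower in each of the 4 pairs of same-numbered libraries. Among the 45 genes Topbp1 was the only one to lie lower in miRbmx without overlap, and 3.85% of all genes tested did so. Its call was lost without miScramble replicate 3 (adjusted p = 0.052), and with a replicate number left out of all groups it was lost without number 3 (0.085) or 4 (0.055).

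Rad54l encodes a DNA translocase that aids strand invasion and remodels the joined strands (chr4:116094264-116123690, minus strand). In miScramble it measured 30.4, 27.7, 41.8 and 37.5 CPM, in miRbmx 24.7, 24.8, 32.7 and 28.6 CPM, and in miRbmxl1 25.3, 30.3, 33.2 and 30.2 CPM. Every miRbmx library was below the miScramble library of its number, while the groups overlapped, with replicates 3 and 4 above replicates 1 and 2 in miScramble and in miRbmx. The log2 fold change was −0.30 ± 0.07 (adjusted p = 0.023). Rad54l shares 1184 exonic bases with Lrrc41 on the opposite strand, and Lrrc41 was called in the other direction (0.30, adjusted p = 0.042); the strand setting of the counting is not given, so reads of the shared stretch cannot be assigned with certainty. The Rad54l call was lost without miScramble replicate 1, 3 or 4 or miRbmx replicate 2, 3 or 4, at adjusted p from 0.061 to 0.102.

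Dna2 encodes a nuclease and helicase that extends resection together with BLM (chr10:62947026-62974185, plus strand). It measured 38.3, 35.2, 58.2 and 49.4 CPM in miScramble and 29.6, 26.3, 46.8 and 47.2 CPM in miRbmx. In miRbmxl1 the values were 29.8, 35.3, 52.9 and 45.8 CPM. Replicates 1 and 2 were far below replicates 3 and 4 in all 3 groups, so that the groups overlapped although each miRbmx library was below its miScramble partner. The log2 fold change in miRbmx was −0.29 ± 0.08 (adjusted p = 0.030), and this call was lost without miScramble replicate 1, 2 or 3 or miRbmx replicate 1, 2 or 3, at adjusted p from 0.057 to 0.133.

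H2afx encodes the histone variant H2AX, whose phosphorylated form marks chromatin around breaks (chr9:44334694-44336077, plus strand). Its level was 158, 155, 149 and 163 CPM in miScramble and 196, 174, 194 and 195 CPM in miRbmx, with no overlap. In miRbmxl1 it was 199, 166, 172 and 162 CPM, overlapping both other groups. The log2 fold change in miRbmx was 0.28 ± 0.06 (adjusted p = 0.015), and it was the only one of the 45 genes to lie higher without overlap, as 4.22% of all genes tested did. The call was lost without miScramble replicate 1 (adjusted p = 0.059) or 3 (0.072), without miRbmx replicate 3 (0.062), and with the GC trend removed (0.052). Its opposite-strand neighbour Gm44335 averaged 0.658 CPM.

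Rad1 encodes a subunit of the ring-shaped checkpoint clamp that it forms with RAD9A and HUS1 (chr15:10486018-10499063, plus strand). It measured 11.2, 13.4, 17.6 and 18.2 CPM in miScramble, 13.8, 15.4, 24.4 and 20.01 CPM in miRbmx, and 14.0, 16.99, 20.8 and 21.5 CPM in miRbmxl1. Each knockdown library was above its miScramble partner, and the groups overlapped because replicates 1 and 2 were lower throughout. The log2 fold change was 0.28 ± 0.08 in miRbmx (adjusted p = 0.042). That call was lost without any single miScramble or miRbmx library and without miRbmxl1 replicate 4, at adjusted p from 0.0501 to 0.174.

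Xrcc5 encodes Ku80, which with Ku70 binds broken ends first in end joining (chr1:72307421-72394952, plus strand). It measured 24.6, 28.0, 31.0 and 29.2 CPM in miScramble, 29.3, 31.2, 38.7 and 34.7 CPM in miRbmx, and 33.6, 29.7, 35.2 and 35.1 CPM in miRbmxl1. All 8 knockdown libraries exceeded the miScramble library of their number, with overlap between the groups. The log2 fold change in miRbmx was 0.25 ± 0.07 (adjusted p = 0.040). That call was lost without miScramble replicate 1, 3 or 4, without any single miRbmx library, without miRbmxl1 replicate 4, at adjusted p from 0.057 to 0.141, and with the length trend removed (0.079). Dna2, Topbp1, Rad1 and Xrcc5 overlap no other annotated gene.

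**Figure D2:**
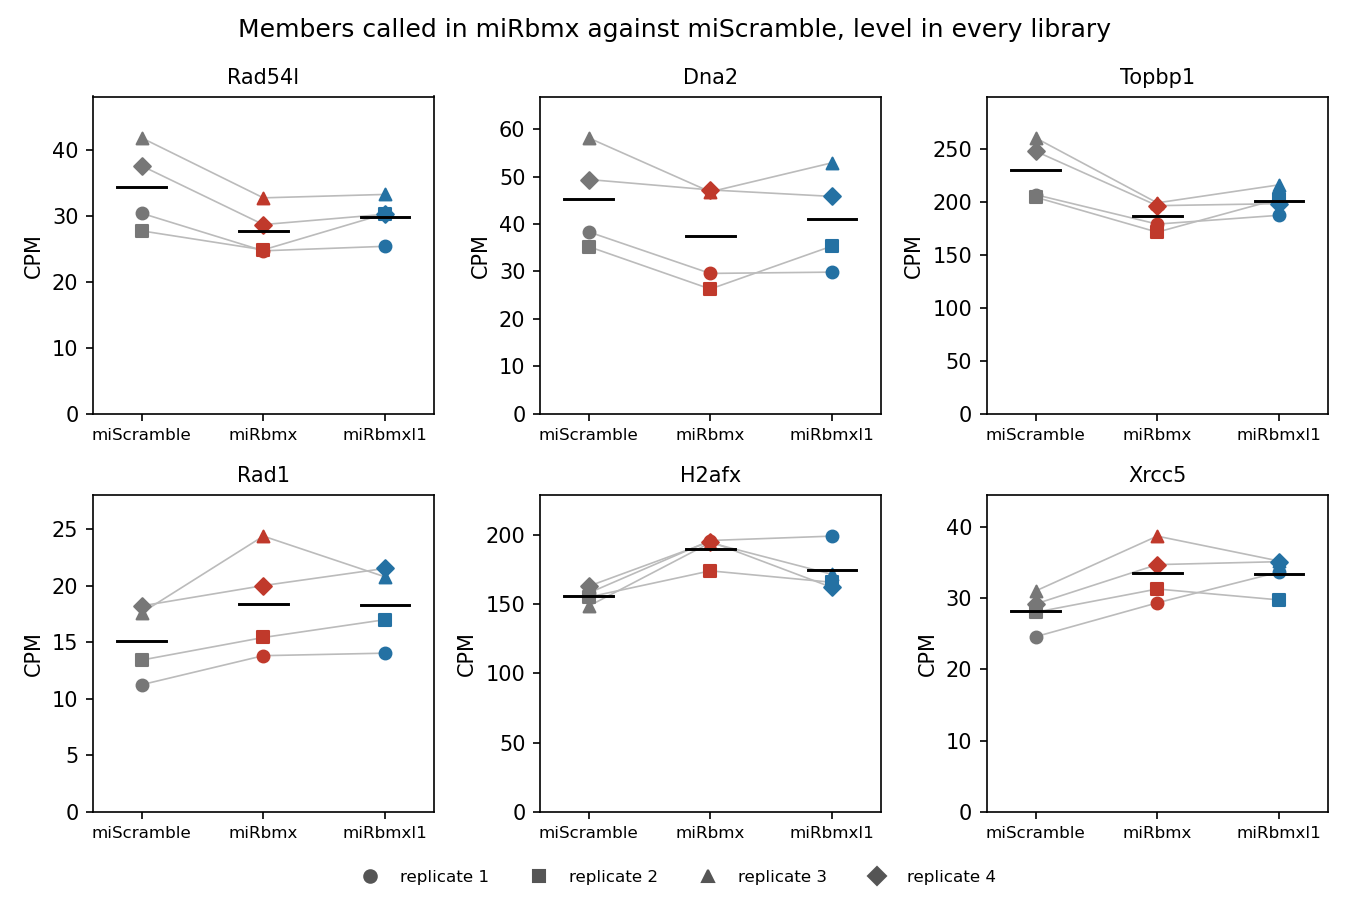
CPM of the 6 genes called in miRbmx in each of the 12 libraries, with replicate numbers as symbols, grey lines joining libraries of the same number and black bars for the group means. Topbp1 and H2afx are the panels in which the miRbmx libraries do not overlap those of miScramble.

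Over the 6 genes together the count of calls also rested on single libraries. It was 0 without miScramble replicate 3, where 1.57% of all genes were called. It was 1 without miScramble replicate 1 (2.87% of all genes) or miRbmx replicate 3 (2.43%), and 2 without miRbmx replicate 2 (2.83%). It was 3 without miScramble replicate 4 (3.8%), miRbmx replicate 1 (4.69%) or miRbmx replicate 4 (5.89%). The share of all genes called thus also lay below 8.35% in each of these fits. Directions held in each of these fits. Over 16 fits without 1 library or without 1 replicate number, the call was lost in 3 for Topbp1, 5 for H2afx, 9 for Rad54l and for Dna2, 12 for Xrcc5 and 13 for Rad1. DESeq2 with the same block called the same 6 genes, and 11.5% of all genes.

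The sequences in front of these genes are shown because they were the members that passed the test. RefSeq promoter windows (GRCm38.p6, 250 bases before to 50 after the annotated start, written 5′ to 3′ along the gene) were matched for 34 of the 45 genes, and for 5 of the 6. Matches are in capitals, for the E2F words TTTCCCGC, TTTGGCGC, TTTCGCGC and TTTGCCGC, the cell cycle homology region word TTTGAA and the CCAAT box word CCAAT, each searched on both strands. The windows were chr4:116123641-116123940 (minus strand) for Rad54l, chr10:62946779-62947078 (plus) for Dna2, chr9:103305077-103305376 (plus) for Topbp1, chr15:10485768-10486067 (plus) for Rad1 and chr1:72307171-72307470 (plus) for Xrcc5.
Rad54l: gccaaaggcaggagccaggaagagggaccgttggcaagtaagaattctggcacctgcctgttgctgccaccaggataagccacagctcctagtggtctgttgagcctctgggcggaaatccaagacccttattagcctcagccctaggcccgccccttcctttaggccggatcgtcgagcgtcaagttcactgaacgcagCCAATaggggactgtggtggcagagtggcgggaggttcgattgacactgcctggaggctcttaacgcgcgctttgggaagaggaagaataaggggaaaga
Dna2: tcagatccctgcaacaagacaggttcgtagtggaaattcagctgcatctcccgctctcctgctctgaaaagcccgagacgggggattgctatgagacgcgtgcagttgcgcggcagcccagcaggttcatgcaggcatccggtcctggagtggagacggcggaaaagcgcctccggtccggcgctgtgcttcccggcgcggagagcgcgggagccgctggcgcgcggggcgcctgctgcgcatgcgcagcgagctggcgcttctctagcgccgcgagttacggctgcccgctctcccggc
Topbp1: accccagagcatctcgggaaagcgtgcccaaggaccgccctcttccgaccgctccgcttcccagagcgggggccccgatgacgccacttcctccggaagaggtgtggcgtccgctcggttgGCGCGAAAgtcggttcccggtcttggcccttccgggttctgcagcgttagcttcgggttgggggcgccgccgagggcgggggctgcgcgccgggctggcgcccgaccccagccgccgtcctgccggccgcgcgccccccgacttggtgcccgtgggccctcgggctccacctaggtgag
Rad1: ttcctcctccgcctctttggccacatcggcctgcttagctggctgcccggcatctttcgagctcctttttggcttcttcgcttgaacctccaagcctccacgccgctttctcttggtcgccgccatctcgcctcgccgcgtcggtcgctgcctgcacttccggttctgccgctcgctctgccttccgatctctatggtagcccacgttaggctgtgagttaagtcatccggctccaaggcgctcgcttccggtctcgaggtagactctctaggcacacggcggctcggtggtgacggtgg
Xrcc5: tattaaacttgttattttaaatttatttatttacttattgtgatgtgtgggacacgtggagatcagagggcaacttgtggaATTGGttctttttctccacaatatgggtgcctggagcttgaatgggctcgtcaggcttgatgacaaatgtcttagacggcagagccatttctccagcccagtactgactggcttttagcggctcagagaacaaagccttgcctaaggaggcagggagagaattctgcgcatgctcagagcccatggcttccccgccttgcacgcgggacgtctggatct

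The Topbp1 window held an E2F word on the reverse strand, GCGCGAAA, 129 bases before the RefSeq start, which lies 112 bases from the start in GENCODE M21. Rad54l held a CCAAT 50 bases before its start and Xrcc5 its reverse complement ATTGG 169 bases before, while Dna2 and Rad1 held none of the words. Over the 34 matched genes, 6 windows (17.6%) held an E2F word, against 2.26% of all 32851 windows. Of these 6, the window of Xrcc6 lies 28534 bases from its gene's start in GENCODE M21, and the window of Fancc, which held no E2F word, lies 65533 bases away. CCAAT was in 18 of them (52.9%) against 37.4% of all windows, and TTTGAA in 2 (5.88%) against 17.9%. Such matches describe the letters of the window and show no binding. For members only the window nearest the GENCODE start was read, while the share of all windows covers every RefSeq window. The latter was not reduced to a single window per gene or to genes tested, so the shares cover unlike sets.

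Among the strand-exchange paralogs, which assist strand invasion, no gene passed the edgeR test in either knockdown, though all 5 had positive values in both, also under the other scalings tried. Within replicates 1 and 2 alone 3 of the 5 were positive in miRbmx and 5 in miRbmxl1, and within replicates 3 and 4 there were 4 in each. In miRbmx 1 of them, and in miRbmxl1 2, had an unadjusted p under 0.05, as 24.9% and 19.8% of all genes tested did. DESeq2 called 0 and 1 (Xrcc2), where it called 11.5% and 7.28% of all genes. Rad51c, a member of both paralog complexes, measured 11.6, 11.5, 14.4 and 14.4 CPM in miScramble and 14.4, 13.7, 17.7 and 15.7 CPM in miRbmx, higher in all 4 pairs but with overlap (0.25 ± 0.09, adjusted p = 0.115). In miRbmxl1 it measured 15.9, 14.6, 16.7 and 13.0 CPM (0.22 ± 0.09, adjusted p = 0.205). Xrcc3, which acts with Rad51c, had the lowest value of the 5 in miRbmx (0.10 ± 0.14) and 0.30 ± 0.14 in miRbmxl1. It ranged from 2.66 to 5.08 CPM over the 12 libraries.

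Of the 6 partners and recombination mediators or motors, Rad54l was the 1 called in miRbmx, where 8.35% of all genes were. Bard1, the obligate partner of BRCA1 in a ubiquitin ligase, had the highest value in miRbmx at 0.01 ± 0.06 and −0.01 ± 0.06 in miRbmxl1, with a level of 62.0 ± 4.58 CPM (SD, n = 4) in miScramble, 62.3 ± 5.71 in miRbmx and 61.6 ± 3.55 in miRbmxl1. Those differences were smaller than the spread between libraries. The role's median was −0.08 in miRbmx and −0.06 in miRbmxl1. In miRbmxl1 the replicate sets ran opposite ways, with a median of 0.13 and 5 of 6 genes higher within replicates 1 and 2, and of −0.24 and 0 of 6 higher within replicates 3 and 4 (4 at an unadjusted p under 0.05, as 20.4% of all genes were).

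Of the 7 resection genes, Dna2 was the 1 called in miRbmx (8.35% of all genes), and 6 of the 7 had negative values in each knockdown, or 4 in miRbmx and 5 in miRbmxl1 with the length trend removed. Rad50, the ATPase that tethers ends in the MRN complex, was the exception in both, at 0.06 ± 0.06 in each. It measured 96.9, 102, 96.9 and 105 CPM in miScramble, and all 12 libraries lay between 92.7 and 117 CPM. The medians over the 7 genes were −0.06 and −0.12. Positive values numbered 1 in miRbmx and 2 in miRbmxl1 within replicates 1 and 2, and 3 and 0 within replicates 3 and 4.

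In the Fanconi core complex no gene passed the edgeR test in either knockdown (2 of 7 at an unadjusted p under 0.05 in each, beside 24.9% and 19.8% of all genes). DESeq2 called 0 in miRbmx and 1 in miRbmxl1, Fancf, where it called 11.5% and 7.28% of all genes. Fancl, the ubiquitin ligase subunit, had the largest positive value of all 45 genes in miRbmx, 0.31 ± 0.16 (adjusted p = 0.241), and −0.03 ± 0.16 in miRbmxl1. Its counts were low: 2.02, 2.26, 2.49 and 2.77 CPM in miScramble and 3.09, 2.31, 3.08 and 3.40 CPM in miRbmx. Fancb, which sits beside Fancl in the complex, had the lowest value of the 7, −0.30 ± 0.12 in miRbmx (adjusted p = 0.137), and −0.09 ± 0.12 in miRbmxl1. It measured 12.1, 11.9, 18.3 and 14.9 CPM in miScramble and 7.97, 8.33, 16.8 and 14.5 CPM in miRbmx. Replicates 1 and 2 of miRbmx were the lowest 2 of the 12 libraries for Fancb, while replicates 3 and 4 lay inside the range of miScramble.

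Neither gene of the Fanconi ID complex passed the test with edgeR or DESeq2 (1 of 2 at an unadjusted p under 0.05 in each knockdown, Fanci, beside 24.9% and 19.8% of all genes). DESeq2 called 11.5% of all genes in miRbmx and 7.28% in miRbmxl1. Fanci measured 16.7, 17.6, 25.5 and 24.9 CPM in miScramble, 20.4, 19.3, 28.8 and 27.3 CPM in miRbmx, and 21.8, 19.9, 28.1 and 26.1 CPM in miRbmxl1. All 8 knockdown libraries exceeded their miScramble partners, with changes of 0.18 ± 0.07 (adjusted p = 0.113) and 0.19 ± 0.07 (adjusted p = 0.127). Its partner Fancd2, the protein that carries the ubiquitin mark, had −0.04 ± 0.06 and 0.07 ± 0.06.

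All 5 genes of the role of checkpoint kinases and the ATR partner Atrip had negative values in miRbmx. With the GC trend removed, however, Atr and Chek1 were positive, and with the length trend removed Atr was. None of the 5 passed the test with edgeR or DESeq2 (1 of 5 at an unadjusted p under 0.05, Chek2, beside 24.9% of all genes). In miRbmx 8.35% of all genes passed with edgeR and 11.5% with DESeq2. Atr, the kinase recruited to single-stranded DNA, had −0.01 ± 0.07, and its level of 78.3 ± 15.7 CPM in miScramble and 78.1 ± 19.3 CPM in miRbmx differed by far less than the libraries. Chek2, the kinase that relays the ATM signal, measured 18.6, 20.5, 25.9 and 27.1 CPM in miScramble, 19.5, 18.1, 20.7 and 20.7 CPM in miRbmx, and 19.8, 21.8, 20.4 and 18.8 CPM in miRbmxl1. The miScramble libraries were split between replicates 1 and 2 and the higher replicates 3 and 4, while the knockdown libraries all stayed between 18.1 and 21.8 CPM. Its change was −0.21 ± 0.10 (adjusted p = 0.187) in miRbmx and −0.18 ± 0.10 (adjusted p = 0.337) in miRbmxl1.

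The clamp, its loader and the mediators gave 3 of the 6 calls in miRbmx, Topbp1 lower and Rad1 and H2afx higher, from 7 genes, where 8.35% of all genes were called. Other subunits of the clamp did not pass the test: Rad9a had 0.04 ± 0.07 and Hus1 0.07 ± 0.07, both named here after their values were seen. Rad9a overlaps Ppp1ca on the opposite strand, which averaged 181 CPM and was itself higher in miRbmx (0.27, edgeR adjusted p = 0.017). The strand setting of the counting is not given, so reads of any shared stretch cannot be assigned with certainty. Of the 6 end-joining genes Xrcc5 was the 1 called, beside the same 8.35% of all genes. Dclre1c, the Artemis nuclease that opens hairpin ends, had the lowest value of that role, −0.27 ± 0.15 (adjusted p = 0.273), from 10.9, 11.3, 11.3 and 10.9 CPM in miScramble and 8.08, 6.26, 12.1 and 11.1 CPM in miRbmx. Replicates 1 and 2 of miRbmx were below the miScramble range and replicate 3 above it. In miRbmxl1 it measured 6.93, 10.1, 12.9 and 9.14 CPM (−0.21 ± 0.15, adjusted p = 0.466), with replicates 1, 2 and 4 below that range. Without 1 library the miRbmx change of Dclre1c lay between −0.40 and −0.090. Xrcc6, the Ku70 partner of Xrcc5, also named after its values were seen, had 0.17 ± 0.07 (adjusted p = 0.129).

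In Rbmxl1 knockdown none of the 45 genes was called by edgeR, in a comparison where 4.46% of all genes tested were. There were 13 of the 45 genes at an unadjusted p under 0.05, beside 19.8% of all genes, and DESeq2 with the same block called 5, where it called 7.28% of all genes: Xrcc2, Fancf, Rad1 and Xrcc5 higher and Topbp1 lower. The lowest edgeR adjusted p values belonged to Xrcc5 (0.25 ± 0.07, adjusted p = 0.053) and Rad1 (0.28 ± 0.08, adjusted p = 0.054), both higher in all 4 pairs. Fancf, an adaptor of the Fanconi core, chosen after its values were seen, measured 6.83, 6.14, 9.78 and 9.26 CPM in miScramble and 8.51, 9.62, 10.5 and 11.9 CPM in miRbmxl1 (0.35 ± 0.10, adjusted p = 0.058). Topbp1 was lower in all 4 pairs (−0.19 ± 0.06, adjusted p = 0.081). The edgeR count was 1 without miRbmx replicate 3 (3.69% of all genes) and 3 without miRbmxl1 replicate 2 (5.77%). Over the 45 genes the median was 0.03, with 24 higher and 21 lower, beside 0.01 and 51.4% higher over all genes tested. Without 1 library that median lay between −0.016 and 0.074, and it was negative without miScramble replicate 1 (−0.0063) or miRbmxl1 replicate 1 (−0.016).

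The miRbmx and miRbmxl1 comparisons share the 4 miScramble libraries, so that like values in both are no independent support for each other. For Rad54l the changes were −0.30 and −0.20, for Dna2 −0.29 and −0.15, for Topbp1 −0.30 and −0.19, for H2afx 0.28 and 0.16, for Rad1 0.28 and 0.28, and for Xrcc5 0.25 and 0.25. Tested directly, miRbmx against miRbmxl1 called none of the 45 genes with edgeR or DESeq2, in a comparison where 0.0114% of all genes tested passed in edgeR and 0.0569% in DESeq2. The lowest adjusted p was 0.859, and 1 gene had an unadjusted p under 0.05, Fancg, beside 5.7% of all genes. In this contrast 11 of the 45 genes were higher in miRbmx and 34 lower (24.4% higher), with a median of −0.04, beside 48.8% higher over all genes tested. That lean turned between the replicate sets, with 8 of 45 higher and a median of −0.12 within replicates 1 and 2, and 29 higher and a median of 0.05 within replicates 3 and 4. Values ran from −0.21 to 0.33, and the 95% interval, from the t distribution with the degrees of freedom of the test, reached a median of 0.15 to either side of the estimate. For Rad1 the interval of the difference was −0.17 to 0.16, for Xrcc5 −0.15 to 0.14, for Rad54l −0.27 to 0.05 and for Fancl −0.0022 to 0.67.

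Direction in every pair of same-numbered libraries was found for 18 of the 45 genes in miRbmx. There 9 were higher in 4 of 4 pairs, as 17.7% of all genes tested were, and 9 lower in 4 of 4, as 16.8% of all genes were. In miRbmxl1 10 were higher in 4 of 4 pairs (13.4% of all genes) and 6 lower (12.6%). In miRbmxl1 the single gene higher without overlap was Xrcc2, a strand-exchange paralog, where 2.88% of all genes were.

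**Figure D3:**
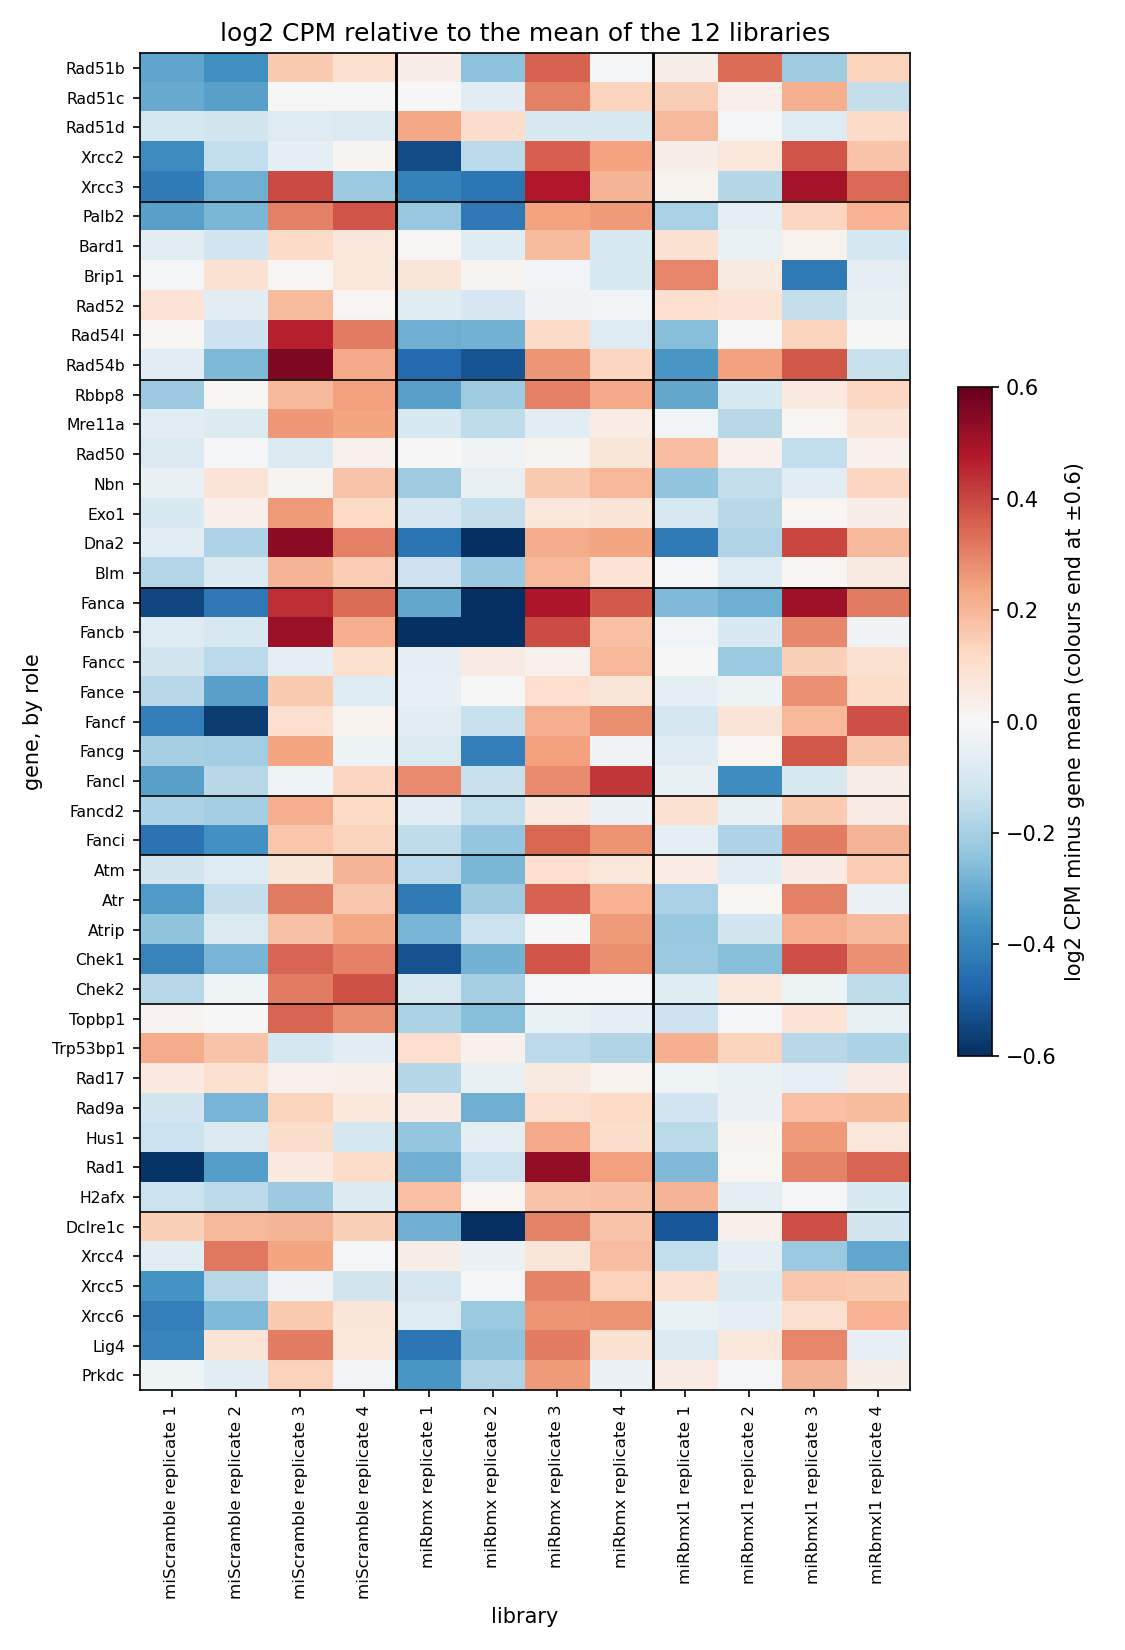
Log2 CPM of each gene in each library minus its mean over the 12 libraries, genes by role and libraries by group, with colours ending at 0.6 in both directions. Within each group the columns of replicates 3 and 4 are redder than those of replicates 1 and 2 for most genes.

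The largest differences among the 45 genes ran between replicate numbers and not between groups. Mean log2 CPM of replicates 3 and 4 minus that of replicates 1 and 2 was positive for 38 of the 45 genes, with a median of 0.22, beside 0.03 and 53.4% of genes over all those tested. These sets were seen in the data, so the values are a description and carry no test. The median was 0.31 in miScramble, 0.30 in miRbmx and 0.18 in miRbmxl1. In 12 genes all 6 libraries of replicates 3 and 4 exceeded all 6 of replicates 1 and 2, as in 9.4% of all genes tested, and in 1 gene, Trp53bp1, they were all lower, as in 10.6% of all genes.

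Fanca, a subunit of the Fanconi core, showed the widest gap and is named for it after its values were seen. It measured 25.3, 27.4, 29.8, 24.0, 30.7 and 30.1 CPM in the 6 libraries of replicates 1 and 2 and 50.1, 46.5, 51.6, 47.5, 52.5 and 45.8 CPM in those of replicates 3 and 4. Chek1 and Trp53bp1 are likewise named after their values were seen. The same was seen for Chek1, the kinase downstream of ATR, with means of 20.8 and 32.6 CPM, and for Dna2, with means of 32.4 and 50.0 CPM. Trp53bp1, which steers breaks toward end joining, ran the other way, from a mean of 183 to 150 CPM. An S-phase list of 30 replication genes moved with this split, with a median of 0.21 and 29 of 30 genes higher in replicates 3 and 4, while the median of a G2/M list of 30 genes was −0.02. That G2/M median ran opposite ways by group, at −0.18 with 6 of 30 genes higher in miScramble, 0.10 with 21 higher in miRbmx and 0.05 with 17 higher in miRbmxl1. The part of the S-phase and G2/M genes in the members' split was not tested.

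**Figure D4:**
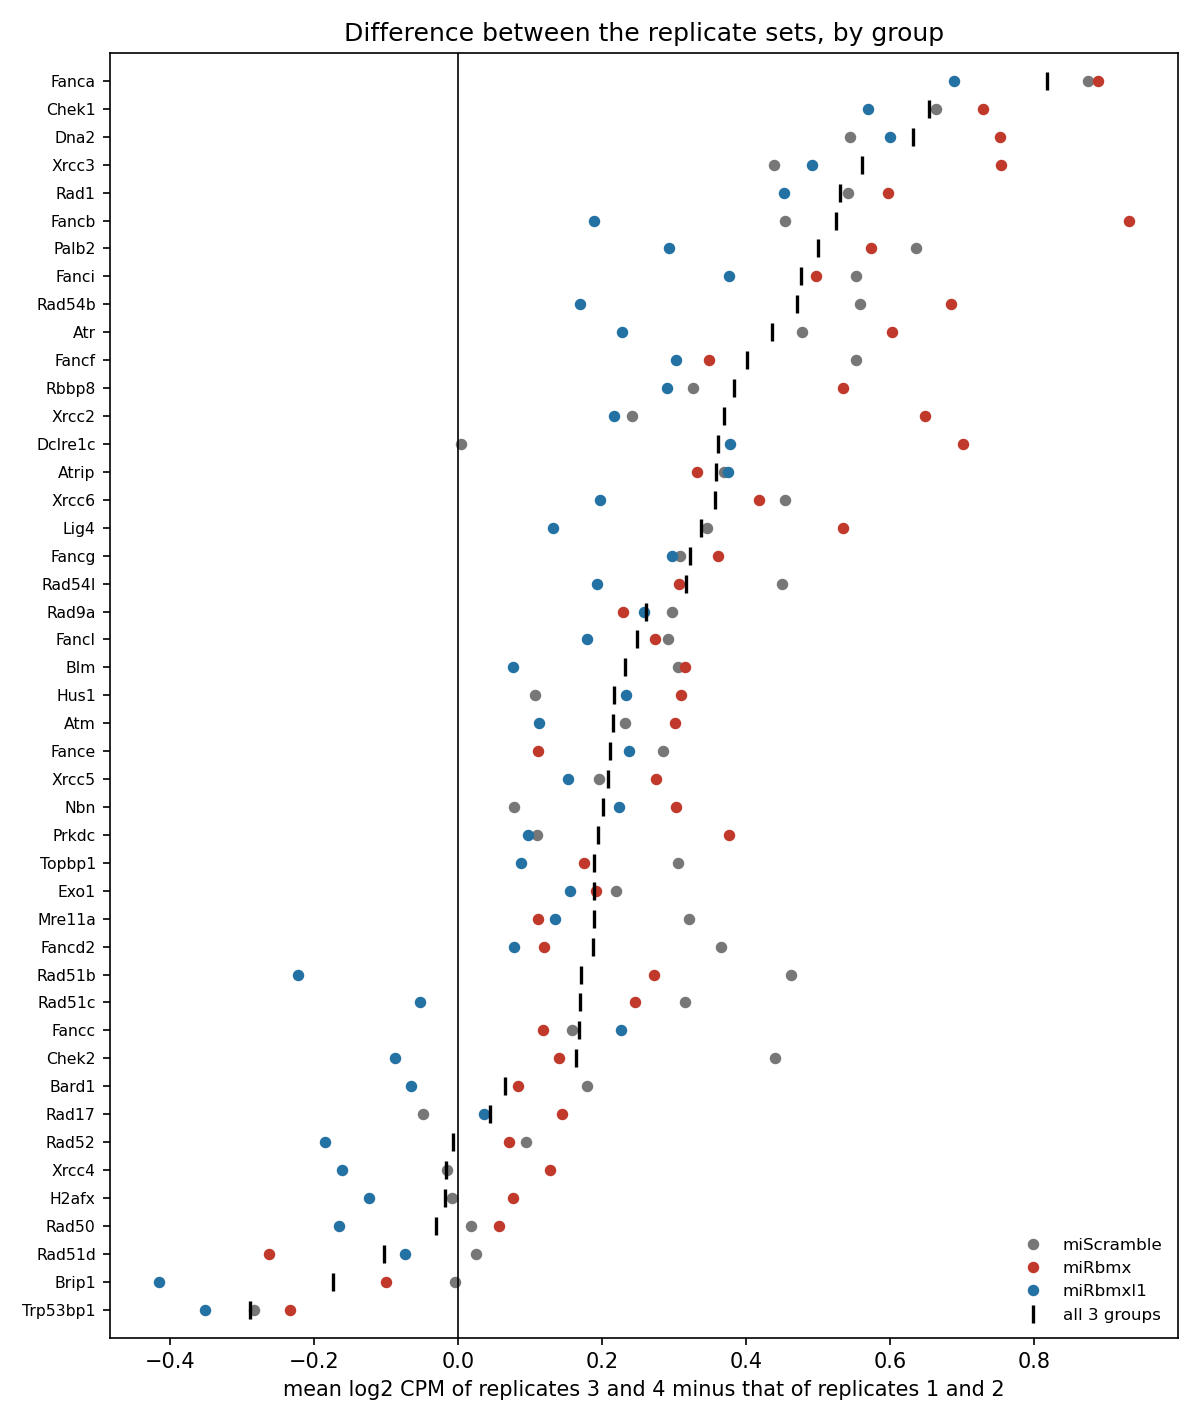
Mean log2 CPM of replicates 3 and 4 minus that of replicates 1 and 2 for each of the 45 genes, in each group (points) and over all 3 groups (bars), sorted by the latter. Bars lie right of 0 for 38 of the 45 genes, with Fanca at the top and Trp53bp1 at the bottom.

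Within replicates 3 and 4 alone, edgeR called 7 of the 45 genes in miRbmx, where 10.1% of all genes tested were called, and within replicates 1 and 2 alone 0, where 0.023% were (11 of the 45 at an unadjusted p under 0.05 in each, beside 23.2% and 18.5% of all genes). In replicates 3 and 4 the lower genes were Topbp1 (−0.37 ± 0.06), Rad54l (−0.38 ± 0.08), Chek2 (−0.36 ± 0.09) and Mre11a (−0.27 ± 0.08), and the higher ones H2afx (0.32 ± 0.07), Xrcc5 (0.28 ± 0.08) and Xrcc2 (0.31 ± 0.10). Of all genes tested, 5.21% were called lower there and 4.91% higher. Mre11a, the nuclease of the MRN complex, and Xrcc2 were not called over all 4 replicates, and they are named after their values were seen. Of the 6 genes called over all 4 replicates, Dna2 (−0.20 ± 0.08, adjusted p = 0.131) and Rad1 (0.30 ± 0.10, adjusted p = 0.071) did not pass there. In replicates 1 and 2 the changes of the 7 genes were −0.22 for Topbp1, −0.22 for Rad54l, −0.04 for Chek2, −0.04 for Mre11a, 0.25 for H2afx, 0.21 for Xrcc5 and −0.08 for Xrcc2, and those of Dna2 and Rad1 were −0.39 and 0.26. For miRbmxl1 there were 3 calls within replicates 3 and 4, where 5.53% of all genes were called, and these were Chek2 (−0.45 ± 0.09), Rad54l (−0.33 ± 0.08) and Topbp1 (−0.30 ± 0.06), all lower, as 2.72% of all genes were. Within replicates 1 and 2 there was none, where 0.172% of all genes were called (10 of the 45 at an unadjusted p under 0.05, beside 13.4% of all genes), and the median of the 45 genes was 0.13 there and −0.05 within replicates 3 and 4.

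Whether a knockdown change differed between the sets was tested by an interaction term. No member passed with edgeR, nor did any of the 17569 genes (0.0%). DESeq2 also called no member, where it called 0.313% of all genes for miRbmx and 0.25% for miRbmxl1. At an unadjusted p under 0.05 there were 6 members for miRbmx, where 11.1% of all genes had such a p, and 11 for miRbmxl1, against 8.36%. Chek2 differed by −0.53 ± 0.14 in miRbmxl1 (adjusted p = 0.322) and by −0.30 ± 0.14 in miRbmx (adjusted p = 0.440). The sets thus gave different counts of calls without a difference that passed the test in any member.

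The cell cycle lists were also followed across the knockdowns. The S-phase list had a median of −0.02 in miRbmx and 0.00 in miRbmxl1. No gene of it was called by edgeR or DESeq2 in either, where DESeq2 called 11.5% and 7.28% of all genes. At an unadjusted p under 0.05 there were 2 of 30 in miRbmx and 4 in miRbmxl1, beside 24.9% and 19.8% of all genes. The median of the S-phase list had opposite signs in the replicate sets. It was 0.08 within replicates 1 and 2 and −0.08 within 3 and 4 in miRbmx, and 0.11 and −0.11 in miRbmxl1. Leaving out 1 library moved the miRbmx median between −0.068 (miScramble replicate 1) and 0.017 (miScramble replicate 3). The miRbmxl1 median then lay between −0.050 and 0.038. In each knockdown 3 of the 30 were called within replicates 3 and 4, all lower, where 10.1% and 5.53% of all genes were called. The G2/M list had a median of 0.09 in miRbmx, with 25 of 30 genes higher and 2 called (8.35% of all genes were), and 0.03 in miRbmxl1. Without 1 library those medians lay between 0.045 (miScramble replicate 3 left out) and 0.15 (miScramble replicate 2), and between −0.042 (miScramble replicate 3) and 0.078 (miRbmxl1 replicate 2). Without miRbmxl1 replicate 3 the latter was −0.0055, and without miRbmx replicate 1 or 3 the former was 0.14 or 0.047. Within replicates 3 and 4 its median in miRbmx was 0.23 with 15 of 30 called (10.1% of all genes were), and within replicates 1 and 2 it was −0.01. In miRbmxl1 it was 0.12 within replicates 3 and 4, with 7 of 30 called, all higher (5.53% of all genes were called), and −0.06 within replicates 1 and 2. Its part in the members' changes was not tested.

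Other genes of the pathway were read from a list of 60, all of which passed the filter. In miRbmx 5 of them were called (8.33%, near the 8.35% of all genes), 3 lower and 2 higher. The lower ones were Rad51ap1, a stimulator of strand invasion (−0.24 ± 0.06, adjusted p = 0.026), Brca1, the ubiquitin ligase subunit that promotes resection and recombination (−0.26 ± 0.07, adjusted p = 0.037), and Helq, a repair helicase (−0.28 ± 0.07, adjusted p = 0.023). The higher ones were Babam2, listed as Bre, a subunit of a BRCA1 complex (0.26 ± 0.08, adjusted p = 0.042), and Mcm8, a helicase of recombination (0.26 ± 0.08, adjusted p = 0.047). Babam2 had 0.44 in replicates 1 and 2 (adjusted p = 0.124) and 0.09 in 3 and 4 (0.547), and Rad51ap1 −0.27 (0.199) and −0.21 (0.099). Brca1, Helq and Mcm8 passed within replicates 3 and 4, where 6 of the 60 were called, 2 higher and 4 lower (10.1% of all genes were), and none within replicates 1 and 2 (12 at an unadjusted p under 0.05, beside 18.5% of all genes). In miRbmxl1 3 of the 60 were called (5.00%, beside 4.46%).

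Of those 3, Brca2, which acts at resected ends in recombination, was lower: 44.1, 43.4, 44.6 and 44.4 CPM in miScramble and 40.3, 32.2, 26.1 and 22.0 CPM in miRbmxl1 (−0.57 ± 0.11, adjusted p = 0.014). All 4 miRbmxl1 libraries lay below all 4 of miScramble, with replicates 3 and 4 the lowest. Of the 60 genes 3 lay lower without overlap in miRbmxl1, as did 490 of the 17569 genes tested. Rmi2, a subunit of the BLM complex, was higher (0.43 ± 0.10, adjusted p = 0.032), as was Mcm8 (0.34 ± 0.08, adjusted p = 0.027). Neither passed within a replicate set: Rmi2 had 0.60 in replicates 1 and 2 (adjusted p = 0.142) and 0.26 in 3 and 4 (0.190), and Mcm8 0.43 (0.128) and 0.25 (0.088). Brca2 had −0.27 (adjusted p = 0.262) in replicates 1 and 2 and −0.90 (2.1e-05) in 3 and 4. Of the 60 genes 3 were called in miRbmxl1 within replicates 3 and 4, all lower (5.53% of all genes were called), and 0 within replicates 1 and 2 (11 at an unadjusted p under 0.05, beside 13.4% of all genes). In miRbmx Brca2 had −0.23 ± 0.11 (adjusted p = 0.221). Without the replicate block no gene of this list was called in either knockdown, where 0.00569% of all genes was called in each. Calls here rested on single libraries as well: the Brca2 call was lost without miScramble replicate 3 or 4 or miRbmxl1 replicate 3, at adjusted p from 0.051 to 0.059, and the count in miRbmx was 0 without miScramble replicate 3 or without miRbmx replicate 1, 2 or 3. That count was 1 without miScramble replicate 1 or 4, 2 without miScramble replicate 2 or miRbmxl1 replicate 4, and 3 without miRbmx replicate 4. In miRbmxl1 it was 0 without miScramble replicate 3 or 4, and 1 without miScramble replicate 1 or 2 or miRbmxl1 replicate 1 or 3. DESeq2 called 8 and 5 of the 60, beside 11.5% and 7.28% of all genes. Without 1 library, the share of all genes called lay between 1.57% and 10.7% in miRbmx and between 0.705% and 5.77% in miRbmxl1. Over 16 fits without 1 library or 1 replicate number, the miRbmx call was lost in 12 for Rad51ap1, Babam2 and Mcm8, in 10 for Brca1 and in 8 for Helq. In miRbmxl1 it was lost in 11 for Rmi2, in 9 for Mcm8 and in 5 for Brca2. In miRbmx the calls of Brca1 (adjusted p = 0.081) and Mcm8 (0.058) were also lost with the length trend removed, that of Babam2 with RLE scaling (0.0505) and that of Rad51ap1 with no low-count filter (0.055). Rad51ap1, Brca2, Rmi2 and Babam2 overlap another annotated gene on the opposite strand.

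Per length of merged exons, the level of the 45 genes in miScramble spanned from 0.707 ± 0.095 CPM per kilobase (SD, n = 4) for Fancl to 113 ± 4.34 for H2afx. After H2afx came Xrcc6 at 36.3 ± 6.71, Topbp1 at 20.5 ± 2.54 and Rad50 at 18.6 ± 0.715 CPM per kilobase, and the last 2 overlapped within their SD. At the low end Rad51b (1.04 ± 0.19), Xrcc4 (1.164 ± 0.15) and Dclre1c (1.19 ± 0.03) overlapped one another as well. These neighbours are named for their place in the order. Exon models count every annotated transcript, so the level of a gene with a long rarely used exon is understated.

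**Figure D5:**
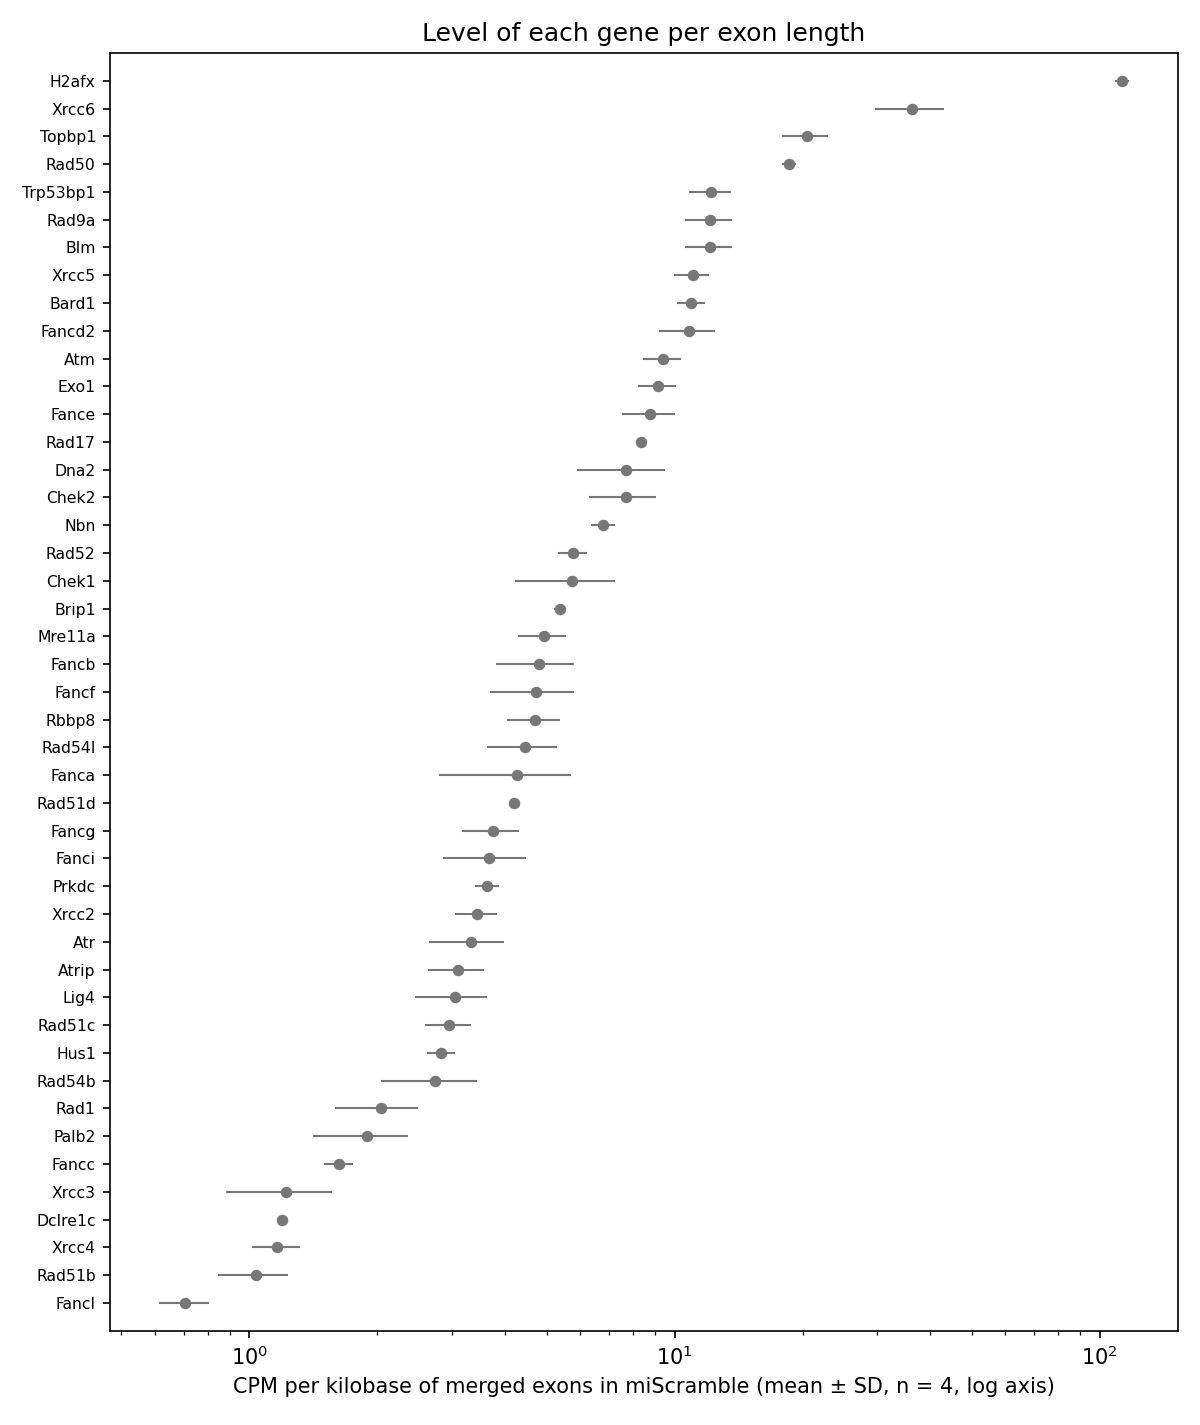
Level of each of the 45 genes in miScramble as CPM per kilobase of merged exons on a log axis, with the mean and SD of 4 libraries, sorted. H2afx stands apart at 113 and Fancl is lowest at 0.707 CPM per kilobase.

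By structure, the 45 genes had a median exon length of 5774 bases against 3418 over all genes tested, and a median longest internal exon of 255 against 181 bases. The list left out genes with very long exons by choice, and 4 of its 45 genes (8.89%) still had an internal exon over 1000 bases (Palb2, Xrcc6, Trp53bp1 and Fancb), against 5.08% of all genes. Across the 45 genes Spearman's rho between log2 fold change and exon length was −0.47 in miRbmx and −0.38 in miRbmxl1, against −0.11 and −0.15 over all genes tested. For the longest internal exon it was −0.43 and −0.42, against −0.03 and −0.08, and for GC content 0.28 and 0.42, against 0.16 and 0.18. Genes are not independent replicates, both columns use the same miScramble libraries, and these values are a description. Overlap with another annotated gene was found for 29 of the 45 genes; of the 16 with none, 4 were called in miRbmx, where 8.35% of all genes were.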

How the data were processed

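Per the labels, rRNA-depleted total RNA of sorted Neuro-2a cells was sequenced in 12 libraries, 4 in each of 3 groups. The deposited values are raw read counts per Ensembl gene, 1 table per library. The submitters' processing notes name STAR 2.5.3a, HTSeq 0.6.1p1, cutadapt, R 3.3.2, DESeq2 1.16.1 and the build mm10; their roles and order, the gene annotation and the strand setting of the counting are not given in the sources used here. If strand was ignored, reads of overlapping genes cannot be told apart. Rows that name no gene held 52.3% to 57.4% of each table's total and entered neither library sizes nor tests. Counts per gene then summed to 43.1 to 52.2 M, where a count of 0 allows at most 3 counts, or 0.0574 to 0.0696 CPM, for counting error only.

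Genes were kept by edgeR's filterByExpr (minimum count 10, minimum total 15), which left 17569. Counts were scaled by TMM and fitted with edgeR 4.0.16 (R 4.3.3, limma 3.58.1) by the quasi-likelihood test, over all 12 libraries, with the replicate number as a block. P-values were adjusted by Benjamini-Hochberg over all genes tested, with calls at an adjusted p under 0.05. CPM were computed here from the deposited counts, log2 CPM with a prior count of 2, and a standard error is the absolute log2 fold change over the square root of F. The fitting code was tested on simulated data: with the block it recovered few changes as small as those of the members called, and more of such calls were false than the adjusted p threshold names. Of 55401 identifiers, 55141 were matched to GENCODE M21 (GRCm38) for names, coordinates, exon length and overlap. Tables and plots were made with Python 3.11.15, pandas 2.3.3 and matplotlib 3.10.9.

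The rule names the block, but the labels do not say what a replicate number stands for, so pairing by number was examined in the values. Deviations from the group means correlated at 0.20 to 0.52 over the 12 pairs of libraries of different groups with the same number. They correlated at 0.10 to 0.43 over the 12 pairs with the other number of the same set (1 with 2, or 3 with 4), and at −0.57 to −0.13 over the 24 pairs across the sets.

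The 45 genes, the other lists and the tests were chosen with earlier results of these data known. Genes named with values are every member called, the members with the highest and the lowest change in miRbmx in each of 8 roles, those with the highest and the lowest level per length, and the other pathway genes called. Any other is said to be named after its values were seen. Alternatives were no replicate block, RLE or upper-quartile scaling, DESeq2 1.42.0 with the block, no low-count filter, a filter of 1 CPM in 4 libraries, removal of the GC or length trend (lowess span 0.3), each library or replicate number left out, each set of replicates alone, and members that overlap no other gene.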

Additional observations from a re-analysis of the deposited data

Results flagged for a closer look

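H2afx in miRbmx replicate 2 stood apart from the other 3 libraries of its group. It measured 174 CPM there, against 194 to 196 CPM in the others, and its gap to the nearest was 0.928 of the group's whole range, above Dixon's 95% critical value for 4 samples. This was 1 of 51 groups of 4 libraries examined (17 genes in 3 groups), and chance exceeds that value in about 1 in 20 groups.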

How the results depend on the processing

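Without the replicate block edgeR called 0 of the 45 genes in miRbmx (6 with it) and 0 in miRbmxl1, and 0 of the 60 other pathway genes in either (5 and 3 with it). Of all genes 0.00569% was called without the block in each of these comparisons. Within replicates 1 and 2 the members called in miRbmx and the other pathway genes called in either knockdown were also 0. There 0.023% of all genes were called in miRbmx and 0.172% in miRbmxl1. The count of members in miRbmx lay between 5 and 7 under the other alternatives that kept all genes and left out no single library or number, where 6.1% to 11.5% of all genes were called, and was 0 to 6 when 1 was left out (0.831% to 10.7% of all genes). In miRbmxl1 the members called, with the share of all genes called in brackets, numbered 2 with upper-quartile scaling (4.67%), the filter of 1 CPM (6.43%) or the GC trend removed (3.79%), 5 with DESeq2 (7.28%), 1 with no low-count filter (3.91%) or the length trend removed (2.88%), 3 within replicates 3 and 4 (5.53%), and 0 to 3 with a library or number left out (0.57% to 5.77%). Other pathway genes called in miRbmx numbered 8 with DESeq2 (11.5% of all genes), 3 with the length trend removed (6.1%) and 0 to 6 by leave-one-out. In miRbmxl1 they numbered 5 with DESeq2 or the GC trend removed, 6 with no low-count filter and 0 to 4 by leave-one-out, in the fits whose shares are given above. Within replicates 1 and 2 the median change of the members in miRbmxl1 was 0.13 (0.03 over all libraries) and that of the S-phase list in miRbmx was 0.084 (−0.02). No setting called a member between miRbmx and miRbmxl1, where 0.0111% to 0.271% of all genes were called. DESeq2 called none for the interaction with the replicate set, where it called 0.313% of all genes for miRbmx and 0.25% for miRbmxl1.

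Some uncalled genes changed sign. In miRbmx, Atr was 0.041 with the GC trend removed, 0.10 with the length trend removed and 0.039 within replicates 3 and 4 (leave-one-out −0.073 to 0.031). Xrcc3 was −0.057 and Fancd2 0.10 within replicates 1 and 2, and Bard1 −0.047 and Dclre1c 0.053 within replicates 3 and 4. Leave-one-out gave −0.014 to 0.18 for Xrcc3, −0.096 to 0.011 for Fancd2 and −0.033 to 0.061 for Bard1. In miRbmxl1, Bard1 was 0.0013 with upper-quartile scaling, 0.0014 with the GC trend removed and 0.13 within replicates 1 and 2. Fancl was 0.025 with the GC trend removed, and within replicates 1 and 2 Fancl was 0.041, Fancb 0.044 and Chek2 0.10. Within replicates 3 and 4 Rad50 was −0.039, Fancd2 −0.076 and Atr −0.11. Leave-one-out gave −0.070 to 0.046 for Bard1, −0.13 to 0.045 for Fancl, −0.014 to 0.11 for Rad50, −0.00015 to 0.12 for Fancd2 and −0.027 to 0.11 for Atr. Over all alternatives for single genes, 856 values kept their direction and side of the threshold, 170 lost a call, 20 gained one and 46 changed sign. The cause of these moves was not tested. At 43.1 M reads or more per library, members near 2 CPM such as Fancl had standard errors of 0.16, against 0.06 for Topbp1.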
